A study of Drosophila melanogaster with 36 samples.

Results

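The growth regulator experiment comprised 8 of the 36 two-colour arrays of the series: 4 titled for dicyclanil and 4 titled for lufenuron, taken by their titles alone. Both arms used Drosophila melanogaster larvae of the y cn bw sp strain, a laboratory strain with visible body, eye and wing mutations that exposed and control larvae shared. Feeding 3rd instar larvae, 4.5 days after laying, were moved to fresh food plates that held the compound or the matching control for 4 h. Dicyclanil was given at 0.067% and lufenuron at 20 ppm, and each compound had its own unexposed control. Sex was not given. For comparison, larvae of the same strain and age were exposed for 4 h, each set with its own control, to diazinon (0.013%), spinosad (6e-05%), nitenpyram (6 ppm), caffeine (1.5 mg/ml) or phenobarbital (10 mM). Arrays of adult males exposed to DDT or to phenobarbital were also in the fit. They were not compared here, but helped to set the error of the tests over arrays. In each arm, RNA of 8 extractions of 50 whole larvae was pooled, so that 1 exposed pool of 400 larvae was compared with 1 control pool of 400. The 4 arrays of a compound were repeats of that pool pair, with the exposed pool in Cy5 on arrays 1 and 3 and in Cy3 on arrays 2 and 4. A p-value over arrays therefore measures the spread between repeat arrays of the same pools, taken over the 34 arrays of the fit, not between cultures of larvae. In the exposure tests 1 dye term was common to all arrays, so dye effects that differed between exposures add to that spread. The arrays carried the families of P450s (cytochrome P450 enzymes), GSTs (glutathione S-transferases) and esterases beside control genes, and 159 named genes had a value on all 8 arrays.

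Dicyclanil and lufenuron are insect growth regulators: they disturb moulting and cuticle formation rather than nerve function. Dicyclanil is a pyrimidine compound used against blowfly larvae, and lufenuron is a benzoylphenylurea that blocks the making of chitin, the main polysaccharide of the cuticle. Insects meet foreign compounds with P450s, which oxidise them, GSTs, which couple them to glutathione, and esterases, which cleave esters. Other P450s are not detoxifying enzymes but make and inactivate ecdysteroids, the steroid hormones that set the moult. In Drosophila, overexpression of Cyp12a4 has been tied to lufenuron resistance, and overexpression of Cyp6g1 has raised survival on dicyclanil. No probe, promoter or protein sequence is shown, and none was used.

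All values below are log2 ratios of exposed over control, each array being set to 0 at the median over its named genes. The sign ± gives the SE of the fit, with n = 4 arrays per exposure and the error pooled over the 34 arrays used. The deposited ratio was taken as Cy5 over Cy3, which the labels do not state; with the opposite reading every direction below would turn. On this reading GstD2 stood at 4.66 and Cyp6d4 at 2.92 in larvae given phenobarbital, a compound known to induce detoxification genes. Between 1547 and 1600 of 1936 spots gave a ratio on the dicyclanil arrays, and between 1716 and 1732 on the lufenuron arrays. The median named gene, as deposited and turned, lay at -0.17 with dicyclanil and at -0.54 with lufenuron, and centring moved it to 0. A gene was called at a Benjamini-Hochberg adjusted p under 0.05 from limma, over all 159 genes, together with a ratio of at least 1.5-fold either way. The larvae were whole animals and the table holds ratios only, so the levels of marker genes could not be read from it. Fewer cells of a type and less RNA per cell cannot be told apart in such pools.

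With dicyclanil, GstE1 and GstD3 were higher in exposed larvae, and 0 genes were called lower. These 2 were 1.26% of the genes tested. GstE1 belongs to the epsilon class and GstD3 to the delta class, the GST classes that expanded in insects. GstE1 read 1.07 and 1.28 on the arrays with the exposed pool in Cy5 and 0.71 and 0.58 on those with it in Cy3. All 4 arrays were above 0, and those with the exposed pool in Cy5 were the higher pair. The mean was 0.91 ± 0.18, or 1.88-fold (adjusted p = 0.00379, limma). GstD3 read 1.09, 0.52, 1.19 and 0.41 on arrays 1 to 4. Its mean was 0.80 ± 0.18, or 1.74-fold (adjusted p = 0.00922, limma). It had the same order by dye as GstE1. Without array 2 or without array 4 neither gene was called: the adjusted p of GstE1 was then 0.114 and 0.0744 and that of GstD3 0.179 and 0.124, while the means stayed between 0.71 and 0.84. Each omission left 1 array with the exposed pool in Cy3. Neither gene was called with no dye term, where the means were the same 0.91 and 0.80 (adjusted p = 0.997 for both, limma), nor without centring, at 0.74 and 0.64 (adjusted p = 0.998 for both, limma). Without array 1 the calls were GstE1, GstD3, GstE3 and GstO1.

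Other GSTs were higher on all 4 dicyclanil arrays without being called. GstE3, which lies close to GstE1 in the genome, read 1.06, 0.39, 1.24 and 0.27. At 0.74 ± 0.21, or 1.67-fold, its adjusted p was 0.0701 (limma). GstO1, an omega class GST, read 0.78, 0.26, 0.96 and 0.16. It stood at 0.54 ± 0.14 with an adjusted p of 0.0292 (limma), but at 1.45-fold it missed the size threshold. GstD1, the delta class enzyme best known for acting on DDT, read 0.86, 0.17, 0.95 and 0.11, a mean of 0.52 ± 0.21 (adjusted p = 0.553, limma). In each of these the arrays with the exposed pool in Cy5 were above both others. GstD2, GstD4 and GstD5 had means of 0.42 ± 0.19, 0.42 ± 0.19 and 0.36 ± 0.22, with lowest arrays at 0.15, 0.19 and 0.19. With a dye term fitted for each compound, in place of 1 common to all arrays, 4 genes were called: GstE1, GstD3 and GstE3 higher and Cyp309a2 lower. The median SE over genes was 0.22 with the common dye term and 0.14 with 1 dye term per compound.

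By class, 7 of the 11 delta GSTs were above 0 on all 4 dicyclanil arrays and 0 were below on all 4; over all genes, 17 of 159 (10.7%) were above on all 4 and 10 (6.29%) below. The delta median was 0.23, with 10 of 11 above 0, against 0.01 for all genes. As deposited, without centring, it was 0.07 with 6 of 11 above 0. In the reference annotation GstD10, GstD9 and GstD1 to GstD8 follow each other on chromosome arm 3R with 0 coding genes between them, and GstD11 lies 1 coding gene further on. The positive readings covered most of that run: GstD10 at 0.23 ± 0.18, GstD8 at 0.14 ± 0.23 and GstD6 at 0.12 ± 0.20 had smaller means than GstD1 to GstD5. GstD7 stood at -0.11 ± 0.42, with readings of 0.03, -0.32, 0.18 and -0.31. GstD9 stood at 0.01 ± 0.18 and GstD11 at 0.03 ± 0.21. Whether probes of neighbouring GST genes share sequence was not tested.

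The epsilon GSTs were more uneven than the delta GSTs: 3 of 11 were above 0 on all 4 dicyclanil arrays and 0 below on all 4, with a median of -0.03. Those 3 were GstE1, GstE3 and GstE10, the last at 0.18 ± 0.28. GstE10, GstE1, GstE3, GstE4, GstE5, GstE8 and GstE9 lie in 1 run on arm 2R, in which GstE2, GstE6 and GstE7 were not measured here. GstE4, next to GstE3, stood at 0.11 ± 0.26, GstE5 at -0.03 ± 0.17, GstE8 at 0.05 ± 0.18 and GstE9 at -0.15 ± 0.18. Outside the run, GstE11 to GstE14 lay between -0.13 and -0.03. Among the 12 GSTs of other classes GstO1 was the highest and GstZ2, a zeta class GST, the lowest, at -0.41 ± 0.27 with readings of -1.06, -0.10, -0.30 and -0.18. Over all 34 GSTs, 2 were called higher, 7 had an unadjusted p under 0.05 (all 7 higher), and the median was 0.12, or -0.05 as deposited. Among all 159 genes 8 had an unadjusted p under 0.05 and were higher (5.03%), and 0 were lower.

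**Figure D1:**
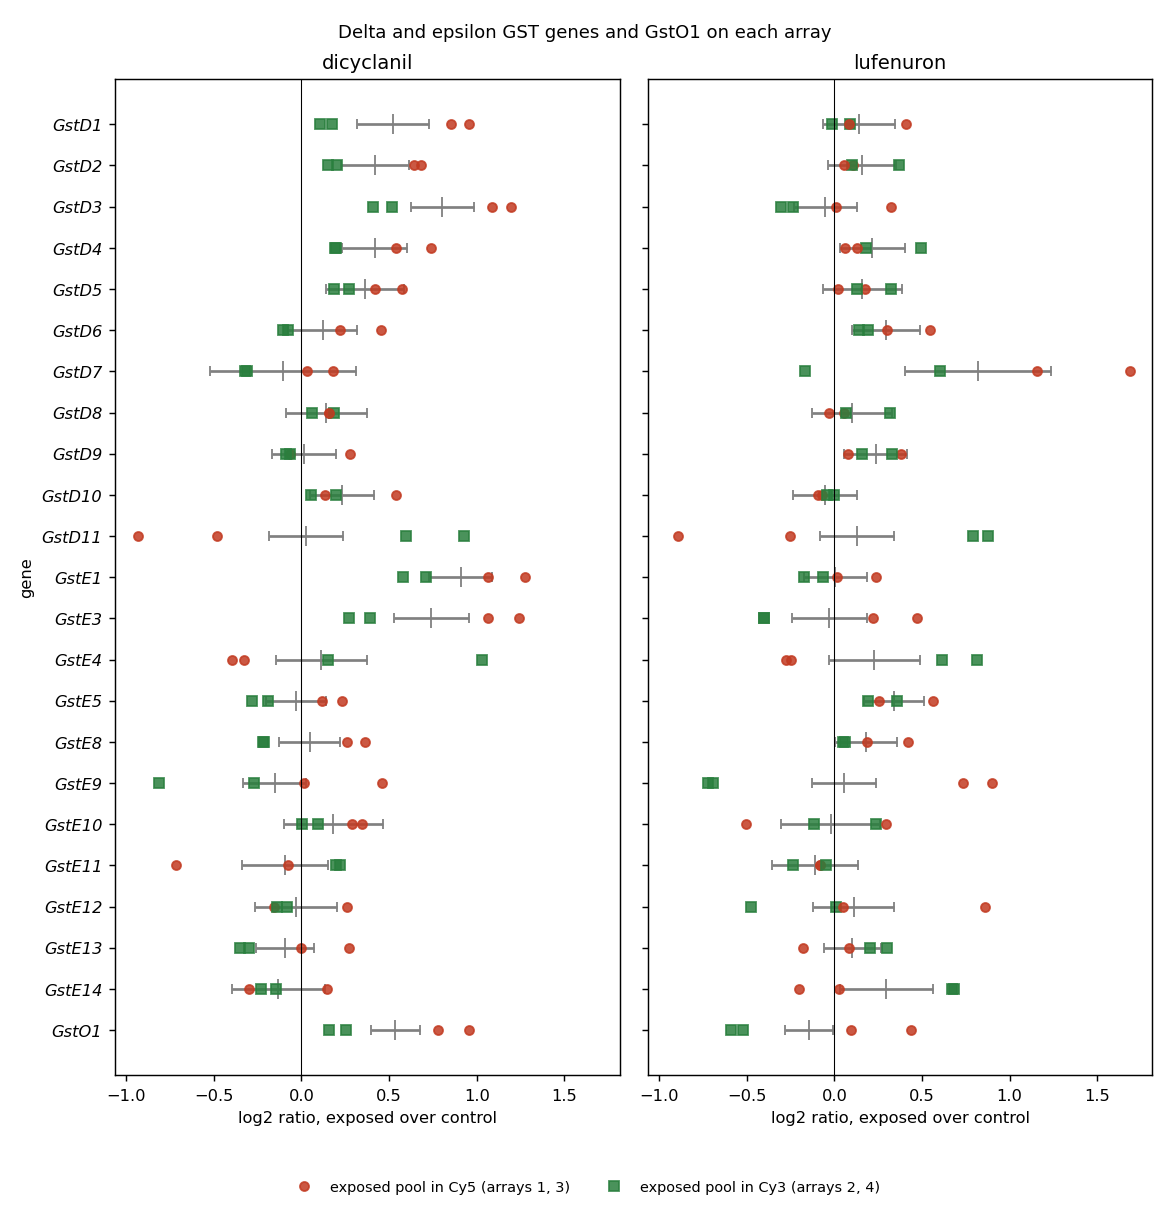
Log2 ratio of exposed over control for each delta and epsilon GST and GstO1, with dicyclanil at left and lufenuron at right. Circles are arrays with the exposed pool in Cy5, squares those with it in Cy3, and grey bars the mean ± SE of the fit; with dicyclanil GstE1 lies between 0.58 and 1.28 and GstD3 between 0.41 and 1.19, while with lufenuron both spread around 0.

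With lufenuron, 0 of 159 genes were called in either direction (0%), and 1 gene (0.629%) had an unadjusted p under 0.05 by limma. With arrays centred on the midpoint of the spots that kept to 1 pool, a choice made after seeing the data, 21 genes were called, all lower; with arrays scaled to 1 spread 7 were called, 3 higher and 4 lower. The gene with the unadjusted p under 0.05 was Cyp4g1, the P450 of oenocytes that makes the waterproofing hydrocarbons of the cuticle, and it was lower in exposed larvae. It read -0.44, -0.56, -0.67 and -0.72 on arrays 1 to 4. The 4 readings lay close together whichever pool carried Cy5. The mean was -0.60 ± 0.23, or 0.66 of control (unadjusted p = 0.0132, adjusted p = 0.986, limma). With a dye term per compound 2 genes were called: Cyp4g1 lower (adjusted p = 2.25e-05, SE 0.07) and GstD7 higher (adjusted p = 0.0206, SE 0.19). GstD7 read 1.15, 0.61, 1.68 and -0.16, a mean of 0.82 ± 0.42 in the common fit, from 13 spot values. Its arrays did not keep 1 sign.

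The other genes that kept 1 sign on all 4 lufenuron arrays had means between -0.64 and 0.50. Of all genes 16 (10.1%) were above on all 4 and 15 (9.43%) below. GstZ2, GstE5 and GstD6 were the highest GSTs among them, at 0.50 ± 0.27, 0.34 ± 0.17 and 0.30 ± 0.20. CAH1, a carbonic anhydrase, stood at 0.30 ± 0.18. Beside Cyp4g1 the lower genes included phtm at -0.64 ± 0.56, Cyp313a3 at -0.51 ± 0.35 and Cyp9b1 at -0.28 ± 0.30. Of the delta GSTs 5 of 11 were above on all 4 arrays and 1 below, with a median of 0.16. Of the epsilon GSTs 2 of 11 were above and 1 below, with a median of 0.10. Of the P450s 2 of 85 were above on all 4 and 11 below, with a median of -0.02. The esterases, 3 of 16 above and 0 below, had a median of 0.15. These medians depend on the centring: as deposited the GST median was -0.44, the P450 median -0.56 and the esterase median -0.39, since the median of all genes was then -0.53.

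Genes of hormone metabolism were looked at because both compounds act on the moult. With dicyclanil the 5 measured enzymes of ecdysteroid synthesis, spo, phtm, dib, sad and shd, all had means below 0, 0 of them called, with a median of -0.07. Over all 159 genes 83 had means above 0, and 2 were called. phtm, the 25-hydroxylase of the ring gland, read -1.96, -0.69, -1.26 and 1.15, a mean of -0.69 ± 0.56. Its 4 arrays disagreed in sign, and 13 spot values lay behind it. dib stood at -0.18 ± 0.36, sad at -0.07 ± 0.32 and spo at -0.02 ± 0.17. shd, the last enzyme of the path, which acts outside the ring gland, stood at -0.00119 ± 0.17. With lufenuron phtm was at or below 0 on 4 of 4 arrays, from -1.15 up to -0.00117. The other 4 lay between -0.20 (sad) and 0.15 (dib).

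Cyp18a1, which inactivates ecdysteroids by 26-hydroxylation, was lower on 4 of 4 dicyclanil arrays. It read -0.20, -0.78, -0.61 and -0.47, a mean of -0.52 ± 0.37 (adjusted p = 0.996, limma). With lufenuron it read 0, -0.72, -0.09 and -0.28, a mean of -0.27 ± 0.37. Neither was called. Jhedup, a relative of juvenile hormone esterase by gene duplication, read -0.03, 0.41, 0.53 and 0.77 with dicyclanil and 0.25, -0.25, -0.78 and -0.36 with lufenuron. Its means were 0.42 ± 0.23 and -0.29 ± 0.23. 3 of 4 arrays were above 0 in the first and 3 of 4 below in the second.

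The P450s linked to resistance showed no called change with the compound to which they are linked. Cyp12a4 read 0.13, -0.35, -0.14 and -0.35 with lufenuron, a mean of -0.18 ± 0.16. Its 95% interval lay within 2-fold either way, as did that of Cyp6g1 with dicyclanil. There Cyp6g1 read 0.10, 0.12, 0.21 and -0.08, a mean of 0.09 ± 0.22. Both intervals are for centred values and shift with the centring. As deposited, the lufenuron median of Cyp12a4, Cyp6g1 and Cyp6g2 was -0.72, and with the midpoint centring it was -0.65. Cyp6g1 with lufenuron was below 0 on all 4 arrays, at -0.18 ± 0.22. Cyp6g2, a P450 next to Cyp6g1 that has been tied to resistance to other insecticides, stood at -0.06 ± 0.20 with dicyclanil and at -0.02 ± 0.20 with lufenuron. Cyp12a5, a mitochondrial P450 beside Cyp12a4, was above 0 on all 4 dicyclanil arrays at 0.26 ± 0.34.

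Of the 85 P450s, 0 were called with either compound. With dicyclanil 5 were above 0 on all 4 arrays and 8 below, and the median was 0.02, or -0.14 as deposited. Cyp6d4, of the CYP3 clan, was the 1 P450 with an unadjusted p under 0.05: it read 0.62, 0.11, 0.60 and 0.05, a mean of 0.34 ± 0.16 (adjusted p = 0.810, limma). Cyp309a2 had the lowest mean of all genes, -0.95 ± 0.48, with readings of -2.25, -0.06, -1.16 and -0.33 from 13 spot values. The 2 arrays with the exposed pool in Cy5 made most of that mean. Cyp4s3 stood at -0.30 ± 0.15. For 73 of the 85 P450s with dicyclanil and 71 with lufenuron the 95% interval lay within 2-fold either way. Over all genes this held for 141 and 136 of 159. Larger changes were outside those intervals, while some changes under 2-fold lay within them. These counts are for centred values. With lufenuron the P450 median was -0.56 as deposited and -0.49 with the midpoint centring.

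**Figure D2:**
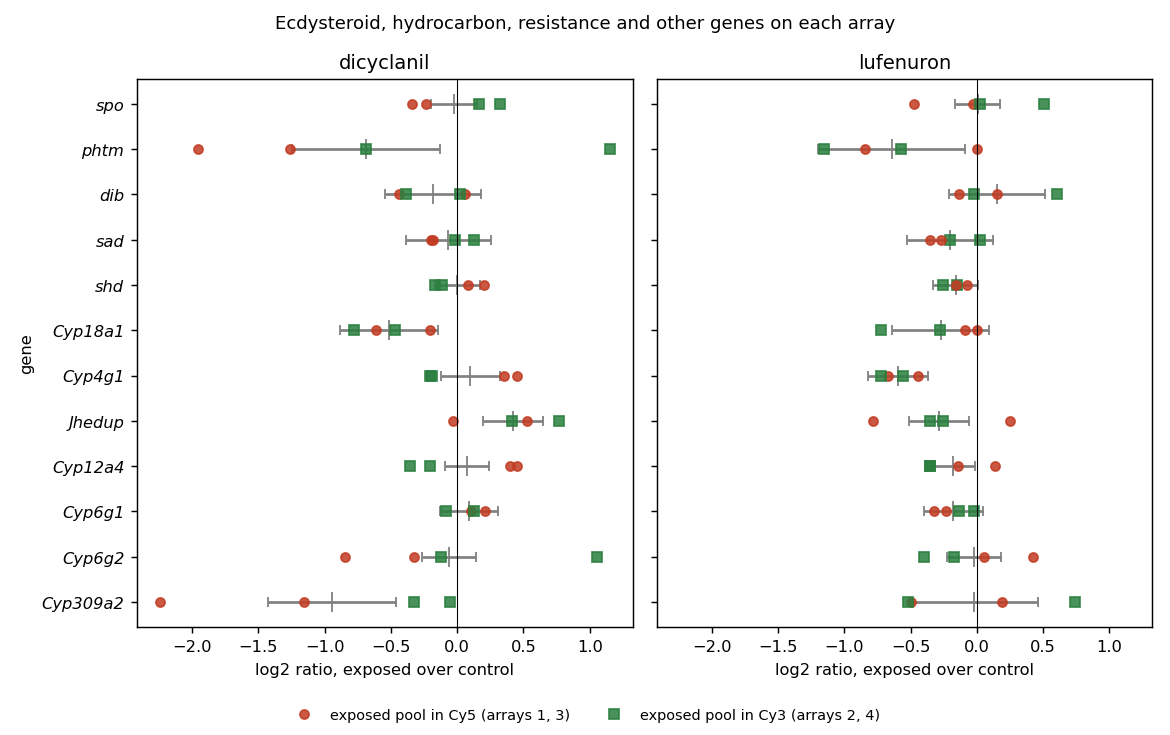
Log2 ratio of exposed over control on each array for ecdysteroid genes, Cyp4g1, Jhedup, resistance-linked P450s and Cyp309a2, with dicyclanil at left and lufenuron at right. Circles are arrays with the exposed pool in Cy5 and squares those with it in Cy3, with mean ± SE of the fit in grey; Cyp4g1 lies between -0.72 and -0.44 with lufenuron, and phtm spans -1.96 to 1.15 with dicyclanil.

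The reference genes of the array lay close to its median gene. With dicyclanil the means of RpS20, RpS21, RpL10Aa (ribosomal proteins) and Gapdh1 (glycolysis) lay between -0.05 and 0.04. With lufenuron they lay between -0.14 and 0.03, where Gapdh1 was the lowest, and as deposited their medians were -0.16 and -0.54, like those of all genes. The small heat shock genes Hsp22, Hsp26 and Hsp27, which respond to many stresses, stood at 0.20 ± 0.22, 0.20 ± 0.13 and -0.12 ± 0.16 with dicyclanil. With lufenuron they stood at -0.05 ± 0.22, -0.24 ± 0.13 and -0.11 ± 0.16. Of the 16 esterases 0 were called with either compound, and with dicyclanil 0 kept 1 sign on all 4 arrays.

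The 2 exposures were then set side by side. Their doses are in different units and were not matched, and the pools have different controls, so the contrast compares the exposures as given. In the direct contrast 0 of 159 genes were called (0%), while 10 had an unadjusted p under 0.05 by limma, 8 of them higher with dicyclanil (5.03%) and 2 with lufenuron (1.26%). The smallest adjusted p was 0.118. GstE1 stood at 0.91 with dicyclanil and at 0.00456 with lufenuron, where it read 0.24, -0.17, 0.01 and -0.07. The 2 sets of 4 repeat arrays did not overlap, but GstE1 was singled out by its dicyclanil call. The difference was 0.90, with a 95% interval from 0.38 to 1.43. For GstD3, which read 0.32, -0.24, 0.01 and -0.30 with lufenuron, the difference was 0.85 with an interval from 0.33 to 1.37. The array sets did not overlap there either, and GstD3 was singled out in the same way. In how many of the 159 genes the sets did not overlap was not counted. GstE3 differed by 0.77 (0.15 to 1.39) and GstO1 by 0.68 (0.28 to 1.08). Cyp4g1 differed by 0.70 (0.04 to 1.35): with dicyclanil it read 0.45, -0.19, 0.35 and -0.20. GstZ2 differed by -0.91 (-1.70 to -0.11) and was higher with lufenuron. GstD7 differed by -0.92, but its interval ran from -2.13 to 0.28.

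How many genes separated the exposures depended on the dye term and on the arrays that set the error. With a dye term per compound 6 genes were called: GstE1, GstD3, GstE3, GstO1 and Cyp4g1 higher with dicyclanil, and GstD7 higher with lufenuron. With the 8 growth regulator arrays alone, the first 5 of these were called. The mean of the 2 exposures was tested for genes that moved with both: 0 were called (0%), and 6 had an unadjusted p under 0.05, all higher (3.77%). They were GstE1, GstD3, GstE3, GstD1, GstD2 and GstD4, for which the dicyclanil value was the larger in each case. With lufenuron they stood, in that order, at 0.00456, -0.05, -0.03, 0.14, 0.16 and 0.22. Across the 159 genes the dicyclanil and lufenuron ratios had r = 0.01, a description of these 2 pool pairs; genes are not independent replicates. The SD of the ratios over genes was 0.23 with dicyclanil and 0.20 with lufenuron.

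**Figure D3:**
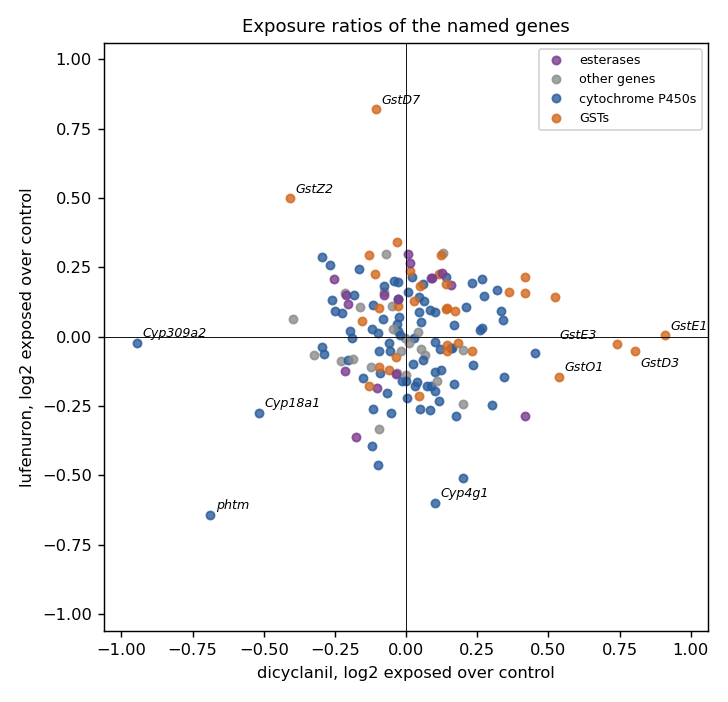
Mean log2 ratio of exposed over control of each of the 159 genes, with dicyclanil on the horizontal and lufenuron on the vertical axis, coloured by family. Of the 159 genes 109 lie within 0.25 of 0 on both axes; GstE1, GstD3, GstE3 and GstO1 stand out along the dicyclanil axis, Cyp4g1 and GstD7 along the lufenuron axis.

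Diazinon, spinosad and nitenpyram, nerve-acting insecticides given to larvae in the same series, provided 12 more arrays with their own controls. Against their mean, GstE1 was higher with dicyclanil by 0.88 ± 0.21 and GstD3 by 0.87 ± 0.21 (adjusted p = 0.0195 for both, limma). These 2 were the only genes called, 1.26% of those tested; 4 had an unadjusted p under 0.05 and were higher (2.52%), GstE3 and GstO1 beside the called pair, and 2, Cyp309a2 and Nlg3, were lower (1.26%). Per exposure GstE1 stood at 0.21 with diazinon, 0.05 with spinosad and -0.17 with nitenpyram, and GstD3 at 0.21, -0.23 and -0.19. Without dicyclanil array 2 or array 4, 0 genes were called. Against the same mean, 0 genes were called with lufenuron (0%) and 4 had an unadjusted p under 0.05 (limma): GstE5 and GstZ2 higher (1.26%), Cyp4g1 and Hsp26 lower (1.26%). Cyp4g1 was lower by -0.73 ± 0.26. GstE1 was also high in larvae given caffeine, at 1.22, and GstE3 at 1.50 with caffeine and 2.57 with phenobarbital. In phenobarbital larvae Cyp4g1 stood at -0.95, where the reference genes lay between -0.89 (Gapdh1) and -0.63 (RpS21). The median gene there lay at 0.78 as deposited, and centring moved it to 0.

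With each exposure as 1 replicate, the 2 growth regulators were compared with the 3 other insecticides. In that test 0 genes passed (0%), the smallest adjusted p was 0.824, and 7 had an unadjusted p under 0.05 (limma). GstE4, Cyp316a1 and GstD6 were higher in the growth regulator pair (1.89%), by 0.55, 0.43 and 0.36. Their means were 0.17, 0.08 and 0.21 in that pair and -0.37, -0.35 and -0.15 in the 3 other insecticides. Cyp309a2, phtm, Cyp18a1 and Cyp6a8 were lower (2.52%), at -0.68, -0.45, -0.44 and -0.38. Here the means were -0.48, -0.66, -0.395 and -0.18 in the growth regulator pair and 0.20, -0.21, 0.04 and 0.21 in the 3 others. Of these 7, Cyp316a1 and Cyp6a8 were chosen after their values were seen. All 11 delta and all 11 epsilon GSTs had differences above 0, with medians of 0.26 and 0.19 against 0.02 for all genes, of which 89 of 159 were above 0; as deposited, without centring, 2 of 11 and 2 of 11 were above 0, with medians of -0.14 and -0.21. The difference between these counts follows the median gene, which as deposited lay at -0.17 and -0.54 in the growth regulator pools and at -0.13, 0.18 and 0.08 with diazinon, spinosad and nitenpyram. A difference above 0 is not a rise over control. Centred and over control, 5 of 11 epsilon GSTs were above 0 with dicyclanil and 8 of 11 with lufenuron. For the delta GSTs these counts were 10 and 9 of 11. Cyp309a2 passed without lufenuron or without spinosad (1 gene in each case). Without lufenuron the growth regulators are dicyclanil alone, which the fit assumes to vary like the other pool pairs.

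**Figure D4:**
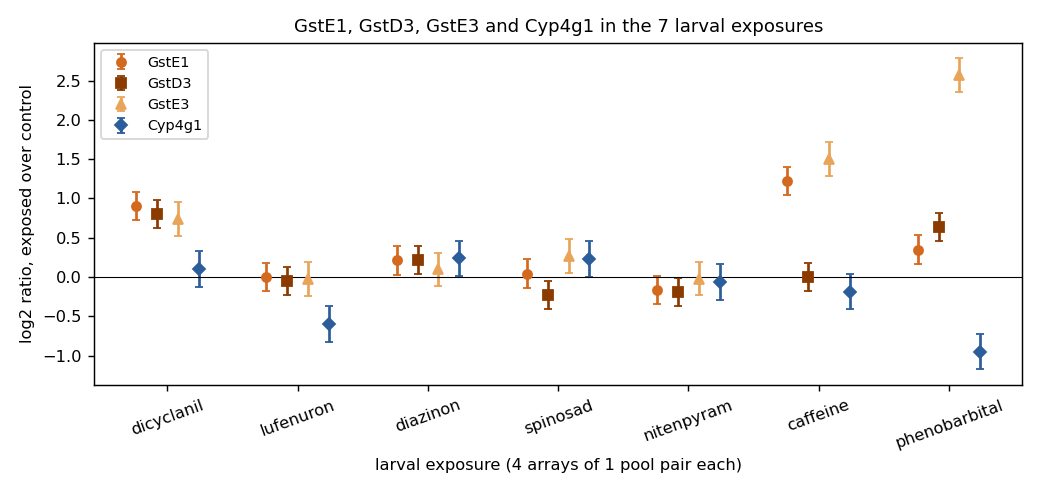
Log2 ratio of exposed over control ± SE of GstE1, GstD3, GstE3 and Cyp4g1 for each of the 7 larval exposures, 4 arrays of 1 pool pair each. GstE1 is high with dicyclanil (0.91) and caffeine (1.22), GstD3 with dicyclanil (0.80) and phenobarbital (0.64), and Cyp4g1 is low with lufenuron (-0.60) and phenobarbital (-0.95). Values are centred, and with phenobarbital the reference genes, not shown, lie between -0.89 and -0.63.

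The dye effect, the log2 ratio of Cy5 over Cy3 that does not depend on which pool carried the dye, was tested for each compound. Its SD over genes was 0.41 on the dicyclanil arrays and 0.30 on the lufenuron arrays, against 0.23 and 0.20 for the exposure ratios. On the dicyclanil arrays 18 of 159 genes (11.3%) were called for it, all towards Cy3. Count and direction depended on the centring and the threshold: as deposited, without centring, 49 were called towards Cy5 and 4 towards Cy3, and centred but with no fold threshold 33 and 28. Without array 3 or array 4, 10 and 7 were called, all towards Cy3. alpha-Est6, an esterase of the alpha cluster, had the largest, at -1.57 (adjusted p = 2.96e-05, limma). Its exposed over control readings were -1.67, 1.21, -1.45 and 1.94, and their mean was 0.00725. The sign thus followed the dye on each array. Cyp313a1, Cyp313a2 and CG6414 followed at -1.34, -1.33 and -1.23, and Cyp4d8 at -1.08 had the smallest adjusted p (3.34e-06, limma). The largest towards Cy5 was Cyp6t2Psi at 0.50, which was not called. GstE3, Mgstl, RpL10Aa and Cyp6a14 lay between 0.39 and 0.41.

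On the lufenuron arrays 9 genes (5.66%) were called, 7 towards Cy3 (4.4%) and 2 towards Cy5 (1.26%). As deposited, without centring, 67 were called, all towards Cy3, and centred but with no fold threshold 18 towards Cy5 and 20 towards Cy3. CG12869 stood at -0.80, se, an omega class GST that makes eye pigment, at -0.79, alpha-Est6 at -0.75 and GstD11 at -0.70. These 4 were called for both compounds: 4 of the 18 with dicyclanil and 4 of the 9 with lufenuron. GstE9 at 0.76 and GstD7 at 0.60 were the 2 towards Cy5. Both had fewer spot values with lufenuron than most genes, 13 of 16. GstE9 read 0.74, -0.69, 0.90 and -0.72 for exposed over control, so its exposure mean was 0.05.

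The dye effects of the 2 compounds differed by at least 1.5-fold in 6 genes (3.77%; adjusted p under 0.05, limma), 1 more towards Cy5 (0.629%) and 5 more towards Cy3 (3.14%) with dicyclanil. As deposited, without centring, 117 were called, all more towards Cy5 with dicyclanil, and with the midpoint centring 55, all in that direction. Hsp27 had -0.25 with dicyclanil and 0.44 with lufenuron, Cyp305a1 -0.42 and 0.18, and Cyp6g2 -0.52 and 0.26. CG6414 had -1.23 and 0.13, and Cyp4d8 -1.08 and -0.49. Cyp4c3 had 0.06 and -0.64. With the 8 growth regulator arrays alone, the count was 3, and without 1 array at a time it lay between 2 and 5. On the dicyclanil arrays 28 of 34 GSTs had a dye effect above 0, with a median of 0.21 against 0.03 for all genes. For the GSTs highest with dicyclanil it was 0.26 for GstE1, 0.34 for GstD3, 0.41 for GstE3 and 0.33 for GstO1. On the lufenuron arrays the same genes had 0.12, 0.22, 0.37 and 0.41. In those arrays the 2 dye orientations gave GstO1 0.10 and 0.44 against -0.52 and -0.59.

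Across genes the 2 dye orientations disagreed. The correlation over 159 genes between the mean of arrays 1 and 3 and that of arrays 2 and 4, both as exposed over control, was -0.54 with dicyclanil and -0.38 with lufenuron. Over unnamed spots with a value, the ratios of Cy5 over Cy3, here not turned, ran the opposite way in the 2 orientations, at r = -0.89 and -0.75. The rank correlations were weaker, at -0.55 and -0.38. Without turning, a negative r means that both orientations gave the same pool as the higher, unlike the negative r of the turned genes. Arrays of the same orientation had r = 0.76 and 0.52 with dicyclanil and 0.28 and 0.63 with lufenuron. These are descriptions across genes or spots measured on the same pools, which are not independent replicates.

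**Figure D5:**
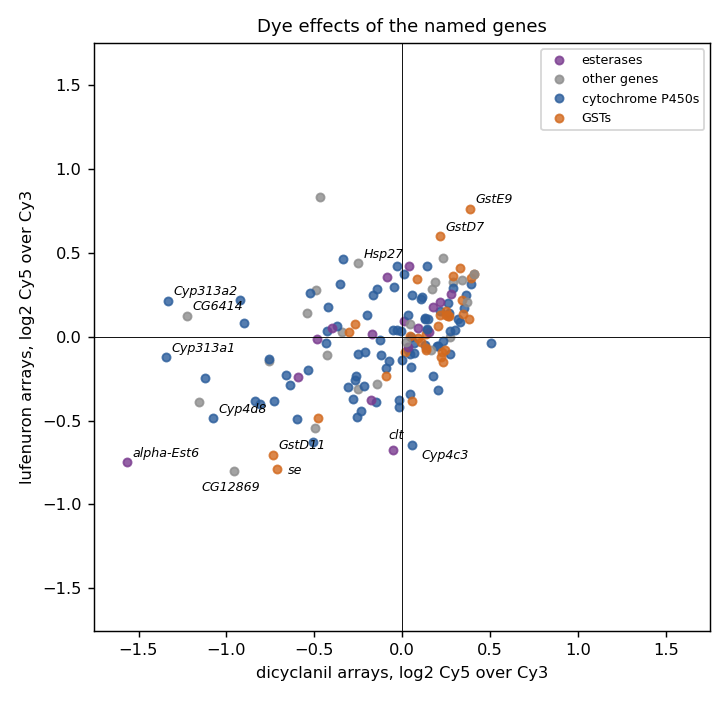
Dye effect (log2 Cy5 over Cy3) of each of the 159 genes on the dicyclanil arrays (horizontal) and the lufenuron arrays (vertical), coloured by family. alpha-Est6, CG12869, se and GstD11 are far towards Cy3 on both axes, while CG6414, Cyp313a1 and Cyp313a2 are so on the dicyclanil axis, and the correlation across genes is 0.44.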

How the data were processed

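Per the file headers and labels, the deposited table holds the authors' log2 ratios of 1936 spots on each of 36 two-colour arrays; limma is named in the submitters' processing notes, and background correction and normalization are not given in the sources used here. Empty values (8543) and a ceiling of 16.61 (2301) were set missing. The 2 adult arrays with identical values were left out, leaving 34. Spots of a gene were averaged: 656 spots had 1 gene symbol, 8 several and 1272 none. Turning by the dye of the exposed pool gave exposed over control, and each array was centred on its gene median. The tests used limma (version 3.58.1, R 4.3.3) with a coefficient for each compound and stage and a dye term common to all arrays, or per compound for the dye tests. The exposure fit with a common dye term was run for dicyclanil on simulated data, with independent errors and the same dye effect on all arrays. Dye effects that differ between compounds were not simulated. Depth has no counterpart here; the number of arrays limits the precision.

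Members, lists and tests were chosen with earlier results of these data known. Genes were named if called, among the 10 highest or lowest of a compound with 1 sign on 4 arrays, in a list of hormone, resistance, delta or epsilon GST, reference or heat shock genes, or among the 5 largest dye effects either way. Outside these rules, Cyp316a1 and Cyp6a8 were named for an unadjusted p under 0.05 by limma in the test with exposures as replicates. Symbols of 158 of 159 genes, and gene order, came from the RefSeq annotation Release 6 plus ISO1 MT. Same-numbered arrays of the 2 compounds deviated together (r = 0.41, 0.27, 0.15 and 0.38), but within a dye orientation r was -0.11 and 0.02. The array number goes with the dye order, and whether it stands for anything else was not tested. Figures were made in matplotlib 3.10.9 under Python 3.11.15, with numpy 2.4.6 and pandas 2.3.3.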

Additional observations from a re-analysis of the deposited data

Results flagged for a closer look

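In 3 of 176 sets of 4 arrays of a named gene, 1 array stood far from the other 3; chance flags about 1 in 20 such sets. CG3841 with dicyclanil read 0.919 on array 4, against -0.92 to -0.77 on the others. GstD9 with dicyclanil read 0.278 on array 3, against -0.09 to -0.07. GstD2 with lufenuron read 0.369 on array 4, against 0.05 to 0.10. Outside the named genes, 77 of the 1272 spots with no gene kept to 1 pool on all arrays used, whichever dye it carried, 46 to the exposed pool and 31 to the control pool, which is why the deposited ratios were taken as not turned.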

How the results depend on the processing

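Of the counts of called genes, those below changed by more than 1.5 times; in the order dicyclanil, lufenuron, their difference, their mean, dicyclanil against the 3 other insecticides and lufenuron against them, the main counts were 2, 0, 0, 0, 2 and 0. A dye term per compound gave 4, 2, 6, 0, 5 and 3 calls, no dye term 0 for dicyclanil and 0 for it against the 3, and values without centring 0 and 0 there. With no dye term the means of GstE1 and GstD3 with dicyclanil stayed at 0.91 and 0.80, and without centring they were 0.74 and 0.64. Scaling arrays to 1 spread gave 11, 7, 14, 3, 6 and 5. Centring on all spots gave 5 for the difference and 1 for lufenuron against the 3, centring on reference genes 5 and 1 there and 1 for lufenuron. Centring on the midpoint of the spots that kept to 1 pool, chosen after seeing the data, gave 21 for lufenuron and 19 for it against the 3, all lower, and 6 for the difference, since the median lufenuron ratio was then -0.45. The 8 arrays alone gave 5 for the difference and the median of spots 2. Without 1 array at a time, dicyclanil kept 0 to 4 calls, dicyclanil against the 3 from 0 to 2, and the other 4 exposure counts stayed at 0. The pool-level count was 0, and 0 to 1 without 1 pool pair. It was 1 without centring and 1 with the midpoint centring, Cyp309a2 in each case.

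The dye counts (18 with dicyclanil, 9 with lufenuron, 6 for their difference) were 53, 67 and 117 without centring, 40, 39 and 36 with arrays scaled, 61, 38 and 12 with no fold threshold, and 63, 150 and 55 with the midpoint centring. Towards Cy5 were 49, 0 and 117 of those without centring, 7, 17 and 10 with arrays scaled, 33, 18 and 7 with no fold threshold, and 0, 0 and 55 with the midpoint centring. A common dye term gave 32. Centring on all spots gave 30 and 20, on reference genes 32, 27 and 2, and the 8 arrays alone 3 for the difference. Without 1 array at a time they lay between 7 and 21, 7 and 9, and 2 and 5. Some dye effects changed sign: GstD7 with lufenuron was -0.15 under a common dye term and -0.43 with the midpoint centring, where GstE9 was -0.26. Without centring the differences of Cyp305a1, Cyp4d8, Cyp6g2 and Hsp27 were 0.40, 0.42, 0.22 and 0.32. The cause was not tested. The array number as a replicate block left the exposure counts at 2, 0, 0, 0, 2 and 0 and the dye counts at 18, 9 and 7; the other settings run changed no count by more than 1.5 times. Signal over background was not used here, so weak probes could not be set apart.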
